A study of Mus musculus with 8 samples.

Results

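The genes described here are 44 genes of the cell division cycle and of DNA replication, followed in sorted Paneth cells of the mouse small intestine. They were taken as a fixed list of gene symbols, chosen with earlier results of these data known. Of these, 22 have roles in S phase and 22 in G2 and mitosis (G2/M). All 44 were found among the 55414 gene IDs of the count table. C57BL/6J mice drank Milli-Q water, or the same water supplemented with 25 mM zinc sulphate (ZnSO4), for 7 days. Cells of the small intestine were then sorted by fluorescence, and RNA of the collected Paneth cells went into stranded mRNA libraries, 4 in the water group and 4 in the zinc group. All libraries shared genotype, tissue and sort. The study describes its samples as a whole as coming from individual mice, and the labels of these libraries gave neither animal, age nor sex. Because bulk RNA was sequenced, fewer cells of a kind and less RNA per cell cannot be told apart.

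A dividing cell licenses its replication origins in G1 by loading the MCM helicase, fires them in S phase while nucleotides are made and the clamp PCNA holds the polymerases, and then passes through G2 into mitosis under cyclin-dependent kinase 1. Genes of these steps are transcribed in waves, the S-phase wave largely under E2F factors and the later wave under complexes that bind at CHR elements and CCAAT boxes, with MYB and FOXM1 factors. Paneth cells are long-lived secretory cells at the crypt base that no longer divide. Their neighbours are crypt base stem cells, which do divide, and the transit-amplifying cells above them divide fast.

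Library totals ran from 20760764 to 24117111 counts, and the 28 coding Defa genes, which encode the α-defensins of Paneth granules, took 27.9% to 39.8% of them. Levels are given as CPM, each count over the total of its library, with the totals adjusted by TMM factors that correct for composition and ran here from 0.764 to 1.23. Where 4 values of a group follow each other, they are replicates 1 to 4 in that order. The Paneth markers Lyz1, Defa24, Itln1, Mmp7, Ang4 and Mptx2 summed to 323831 to 623781 CPM in water and 306404 to 626216 CPM in zinc libraries. Zinc reached the cells, as read from 3 zinc-responsive genes: the log2 fold change, zinc over water, was 3.65 for Mt1 (edgeR adjusted p = 0.0259), 6.15 for Mt2 (adjusted p = 0.0198) and 2.01 for Slc30a1 (adjusted p = 0.0198).

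The 44 genes together made up a small share of each library. It was 0.0742%, 0.125%, 0.105% and 0.162% of counts with water and 0.0917%, 0.130%, 0.135% and 0.189% with zinc. Replicate 1 had the lowest and replicate 4 the highest share in each group, and the groups overlapped. The Wilson 95% interval of the lowest share was 0.0730% to 0.0753% and that of the highest 0.187% to 0.191%, which covers counting error only. Libraries with a low share had a high share of Defa counts, 39.8% in water replicate 1 and 38.5% in zinc replicate 1 against 29.2% in water replicate 4 and 27.9% in zinc replicate 4. Of the counts outside the Defa genes, the 44 genes still took from 0.123% in water replicate 1 to 0.262% in zinc replicate 4.

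On the TMM scale the summed level of the 44 genes was 972, 1231, 985 and 1340.0 CPM in water replicates 1 to 4 (mean 1132 ± 183, SD, n = 4). It was 1184, 1299, 1287 and 1544 CPM in zinc replicates 1 to 4 (mean 1328 ± 153, SD, n = 4). Water replicate 4 lay above zinc replicates 1 to 3, so the groups overlapped, and the ratio of the means was 1.17 (log2 0.23). The S-phase genes summed to 561 ± 82.0 CPM in water and 602 ± 68.8 CPM in zinc (SD, n = 4 each), a ratio of 1.07. The G2/M genes summed to 571 ± 101 CPM in water and 726 ± 101 CPM in zinc, a ratio of 1.27. These groups overlapped as well, with zinc replicate 1 (596 CPM) below water replicates 2 (630 CPM) and 4 (683 CPM). No test was made of these sums.

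**Figure D1:**
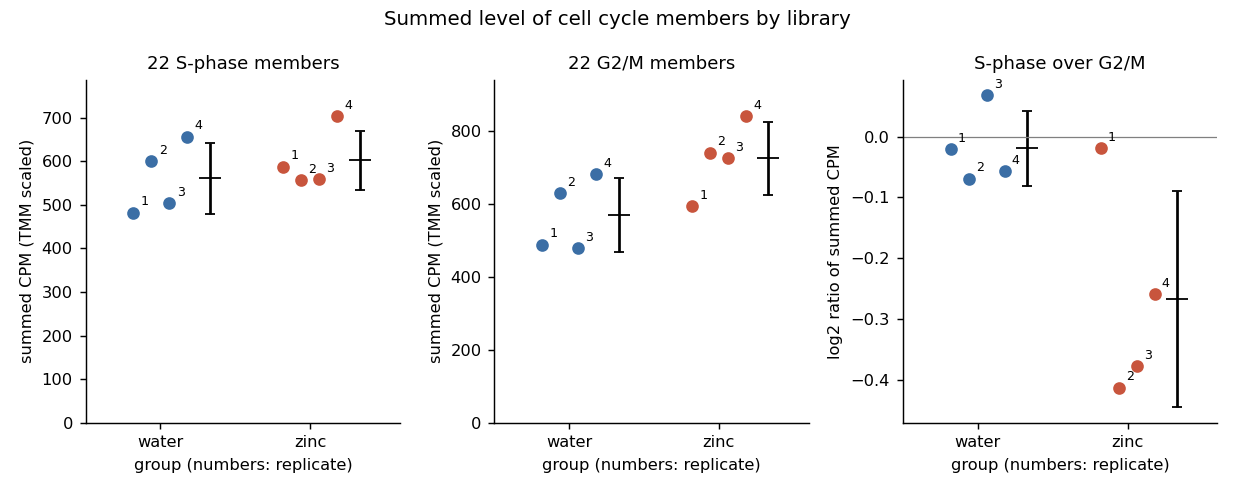
Summed level of the 22 S-phase genes (left) and the 22 G2/M genes (middle) in CPM after TMM scaling, and the log2 ratio of both sums (right), with 1 point per library numbered by replicate; the bar beside each group is its mean with SD. The S-phase sums of the groups overlap, and so do the G2/M sums, which are higher on average in zinc. Zinc replicates 2 to 4 have the lowest S-phase to G2/M ratios, while zinc replicate 1 lies among the water libraries.

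Zinc and water were compared gene by gene with the edgeR quasi-likelihood test over 11988 genes, of which 10 (0.0834%) passed an adjusted p of 0.05 in either direction. All 44 cell cycle genes passed the low-count filter and were tested, and 0 of them passed that threshold. The smallest adjusted p among them was 0.403, for Cenpa. DESeq2 and limma-voom also called 0 of the 44. At an unadjusted p below 0.05, 11 of the 44 genes (25.0%) were higher with zinc in edgeR, against 1.84% of all tested genes, and 0 were lower, against 2.81%. DESeq2 gave 10 and limma-voom 11 at the same level, all higher. In 3 genes, Cdc45, Aurka and Nusap1, every zinc library exceeded every water library, which was so for 1.24% of tested genes. The fitted log2 fold change was above 0 for 36 of the 44 genes, against 51.9% of tested genes, with a median of 0.25 against 0.01 over all tested genes. These 44 genes vary together between libraries, so their counts are not 44 separate observations. A single gene was called in each of 3 other settings. It was Cenpa without the low-count filter, where 0.317% of all genes were called, and Top2a with the replicate number as a block, under TMM scaling and under library totals, where 0.267% were.

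The S-phase and the G2/M genes differed in these counts. Of the 22 G2/M genes, 22 had a log2 fold change above 0, with a median of 0.35 and a range from 0.06 (Cenpf) to 0.62 (Cenpa), and 9 had an unadjusted p below 0.05. Of the 22 S-phase genes, 14 were above 0 and 8 below, with a median of 0.10 and a range from -0.18 (Cdt1) to 0.67 (Cdc45), and 2 had an unadjusted p below 0.05. That difference was not tested.

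**Figure D2:**
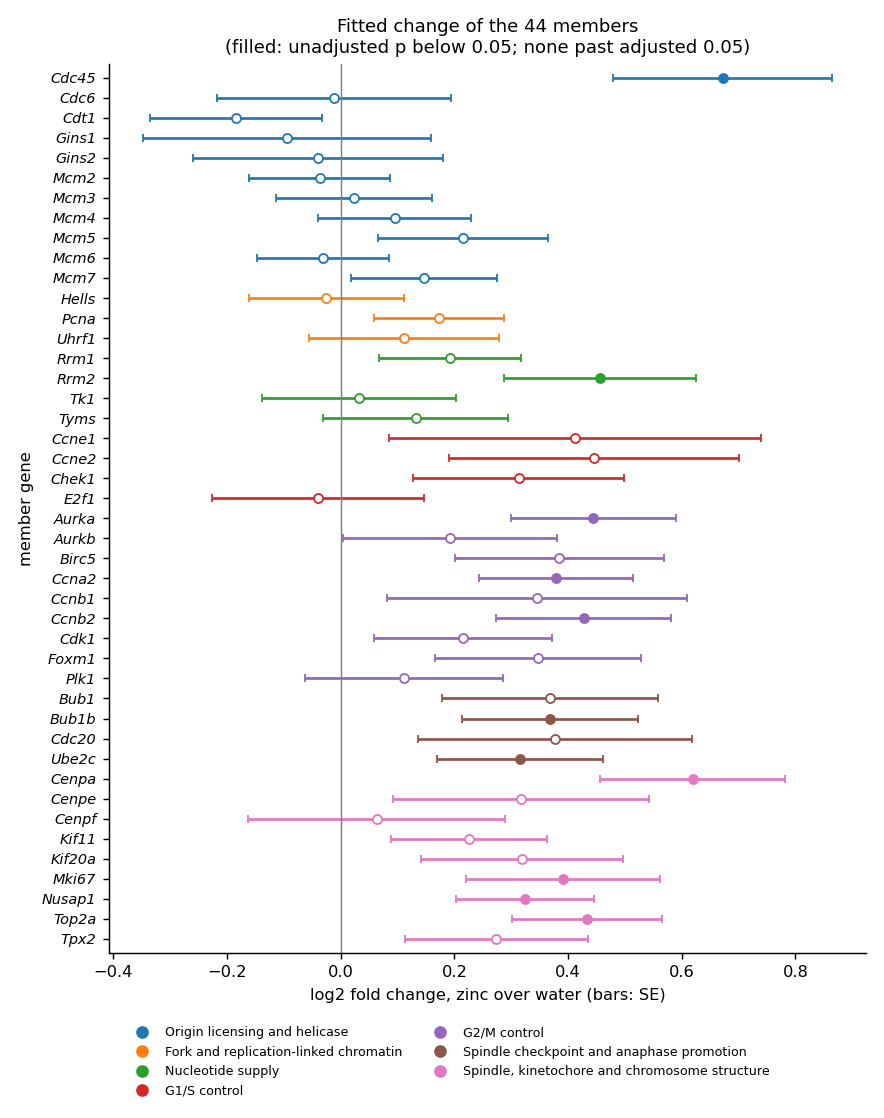
Fitted log2 fold change, zinc over water, of each of the 44 genes with its SE, coloured by role group; filled points have an unadjusted p below 0.05. All 22 genes of the 3 lower groups, from Aurka down, lie to the right of 0, while the 11 helicase genes at the top lie on both sides, with 5 above 0.

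Control of entry into mitosis was represented by 9 genes, all with a log2 fold change above 0 (median 0.35), of which 3 had an unadjusted p below 0.05. Ccna2 (cyclin A2, which acts in S phase and G2) had the highest level per kilobase of transcript in this group, 20.2 CPM per kb. Its level was 46.3, 57.3, 42.2 and 62.8 CPM with water and 62.7, 67.1, 61.2 and 80.3 CPM with zinc (log2 fold change 0.38, SE 0.14, edgeR adjusted p = 0.982). Zinc replicates 2 and 4 lay above every water library, and zinc replicates 1 and 3 lay just below water replicate 4. Ccnb2, a B-type cyclin that activates Cdk1, stood at 16.9, 25.6, 20.1 and 26.7 CPM with water and 24.3, 32.2, 28.8 and 35.0 CPM with zinc (log2 fold change 0.43, SE 0.15, adjusted p = 0.988). Zinc replicates 2 to 4 were above all water libraries, and zinc replicate 1 was within the water range. Aurka, the centrosomal kinase Aurora A (ENSMUSG00000027496, chromosome 2, 172198109 to 172212849, minus strand, GRCm39), measured 11.9, 12.03, 9.01 and 12.7 CPM with water and 14.7, 15.4, 15.1 and 16.8 CPM with zinc (log2 fold change 0.44, SE 0.15, adjusted p = 0.852). Its groups did not overlap. Exons of genes on the opposite strand cover 38.6% of its merged exons and 17.5% of those of Ccna2, and the strand setting of the counting is unknown here. Such overlap is largest for Gins2 (67.3%) and Kif20a (61.5%), and covers 20.8% of Pcna and 19.0% of Ube2c.

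The other control genes had wider overlap between groups. Cdk1, the kinase that drives entry into mitosis, was at 26.4, 28.3, 19.2 and 35.0 CPM with water and 29.5, 31.8, 28.1 and 37.0 CPM with zinc (log2 fold change 0.21, SE 0.16). Ccnb1, the other main B-type cyclin, was at 3.50, 6.23, 5.50 and 8.59 CPM with water and 5.23, 6.86, 7.27 and 11.01 CPM with zinc (log2 fold change 0.35, SE 0.26). In both genes zinc replicate 4 was the highest library and the remaining zinc libraries lay inside the water range. Birc5 (survivin, of the chromosomal passenger complex) was at 13.7, 14.1, 12.9 and 22.6 CPM with water and 17.8, 17.8, 20.9 and 26.2 CPM with zinc (log2 fold change 0.38, SE 0.18). Its partner kinase Aurkb (Aurora B) was at 16.4, 17.8, 14.2 and 25.6 CPM with water and 20.6, 17.8, 18.2 and 28.1 CPM with zinc (log2 fold change 0.19, SE 0.19). Water replicate 4 was above zinc replicates 1 to 3 for both passenger genes. Foxm1, a transcription factor of the G2/M genes, was at 9.26, 11.9, 8.50 and 14.3 CPM with water and 10.9, 14.6, 13.6 and 16.7 CPM with zinc (log2 fold change 0.35, SE 0.18), with overlapping groups. The adjusted p of edgeR was 0.998 for each of these 5 genes. Plk1 (Polo-like kinase 1) had the smallest log2 fold change of the 9, 0.11 (SE 0.17).

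The spindle checkpoint and the anaphase-promoting complex were represented by Bub1, Bub1b, Cdc20 and Ube2c, with log2 fold changes from 0.32 to 0.38. Ube2c, the ubiquitin-conjugating enzyme of that complex, had the highest level per kilobase of all 44 genes, 38.99 CPM per kb. It measured 33.3, 37.0, 25.5 and 38.6 CPM with water and 32.2, 47.1, 41.9 and 46.0 CPM with zinc (log2 fold change 0.32, SE 0.15, edgeR adjusted p = 0.998). Zinc replicates 2 to 4 were above every water library, but zinc replicate 1 was below water replicates 1, 2 and 4. Bub1b (the checkpoint protein BubR1) measured 16.7, 25.2, 22.2 and 28.7 CPM with water and 25.8, 29.6, 28.8 and 35.8 CPM with zinc (log2 fold change 0.37, SE 0.15, adjusted p = 0.998). Zinc replicates 2 to 4 were again above the water libraries, zinc replicate 3 by a very small margin over water replicate 4.

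The 9 genes of the spindle, the kinetochore and chromosome structure all had log2 fold changes above 0 (median 0.32), and 4 had an unadjusted p below 0.05. Cenpa, the histone H3 variant that marks centromeres (ENSMUSG00000029177, chromosome 5, 30824121 to 30842921, plus strand, GRCm39), measured 10.4, 11.8, 11.3 and 16.2 CPM with water and 15.0, 19.6, 20.5 and 21.4 CPM with zinc (log2 fold change 0.62, SE 0.16, edgeR adjusted p = 0.403). All zinc libraries but replicate 1 were above the highest water library, and zinc replicate 1 was below water replicate 4 only. Top2a, the topoisomerase that untangles sister chromatids (ENSMUSG00000020914, chromosome 11, 98883769 to 98915062, minus strand, GRCm39), had the highest level per kilobase of the group, 23.3 CPM per kb. Its values were 85.2, 118, 93.4 and 119 CPM with water and 118, 147, 139.5 and 157 CPM with zinc (log2 fold change 0.43, SE 0.13, adjusted p = 0.660). Zinc replicates 2 to 4 were above all water libraries and zinc replicate 1 was not. Mki67, the proliferation marker Ki-67, measured 50.04, 81.7, 60.4 and 68.0 CPM with water and 59.1, 90.1, 102 and 89.6 CPM with zinc (log2 fold change 0.39, SE 0.17, adjusted p = 0.998). The same 3 zinc libraries were above all water libraries, and zinc replicate 1 was the next lowest after water replicate 1. Nusap1, which bundles spindle microtubules, measured 25.5, 22.3, 22.7 and 27.2 CPM with water and 27.6, 29.8, 29.5 and 35.2 CPM with zinc (log2 fold change 0.32, SE 0.12, adjusted p = 0.998). Its groups did not overlap, with a gap of less than 1 CPM between water replicate 4 and zinc replicate 1. The kinetochore genes Cenpe and Cenpf gave 0.32 (SE 0.23) and 0.06 (SE 0.23) in log2 fold change, with zinc replicate 1 the lowest of all 8 libraries for both.

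**Figure D3:**
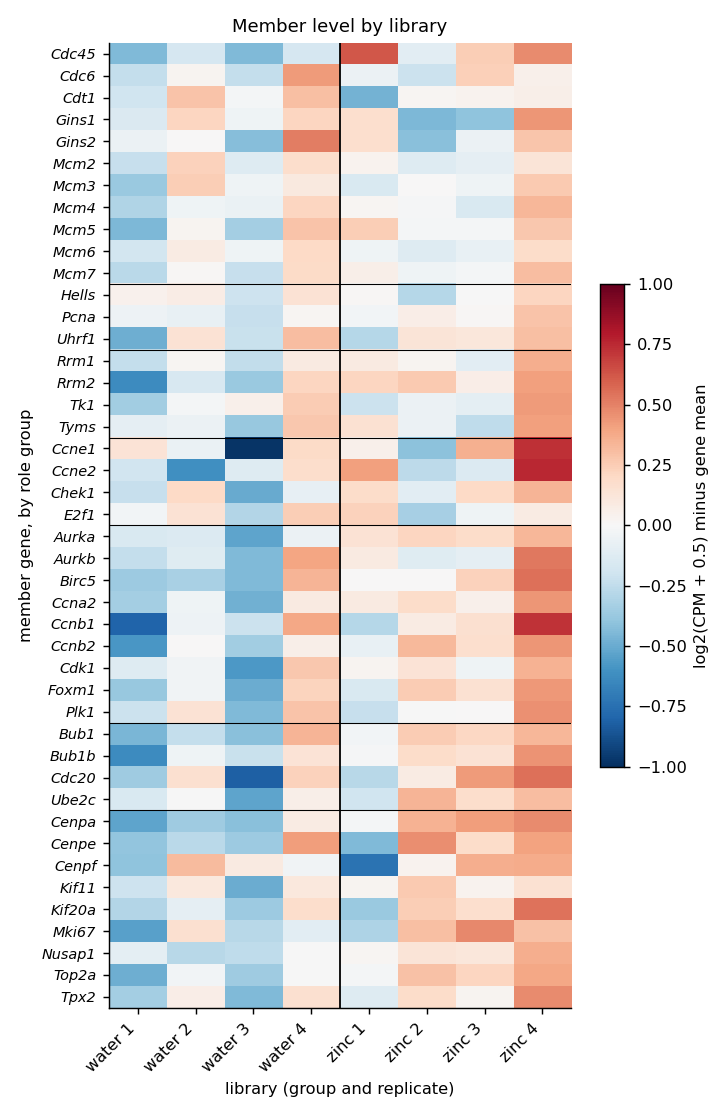
Level of each of the 44 genes in each of the 8 libraries, as log2(CPM + 0.5) minus the mean of that gene over the libraries, with genes ordered by role group and the groups of libraries separated by a vertical line. Zinc replicate 4 is the highest library for 30 genes, water replicate 3 the lowest for 19 and water replicate 1 the lowest for 16.

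The S-phase and G2/M waves also differ in the promoters of their genes, which are shown because the fold changes of all 22 G2/M genes had 1 sign. Promoters of 35 of the 44 genes were matched in a RefSeq table on GRCm38.p6. The window ran from 250 bases before to 50 bases after the 1 start given there for each gene. That start need not be the main start of a gene, and this was not checked gene by gene. The E2f1 window reads as coding sequence inside the gene, and it counts below as an S-phase promoter without a match. Mcm4, Ccna2, Ccne2, Aurkb, Gins1, Gins2, Tpx2, Kif20a and Foxm1 had no entry. The searched motifs, on both strands, were the CHR element (TTTGAA), the CCAAT box (CCAAT) and the E2F site (TTTCCCGC, TTTCGCGC, TTTGCCGC or TTTGGCGC). The CHR letters stood in 12 of 17 G2/M promoters (70.6%), in 2 of 18 S-phase promoters (11.1%), in 11.7% of the 9278 promoters of other tested genes and in 18.1% of all 27025 promoters. CCAAT stood in 15 of the G2/M promoters (88.2%), 10 of the S-phase promoters (55.6%), 39.01% of those of other tested genes and 37.9% of all. An E2F site stood in 1 G2/M promoter (5.88%), 7 S-phase promoters (38.9%), 4.28% of those of other tested genes and 2.32% of all. Both CHR and CCAAT stood in 12 of the 17 G2/M promoters, against 4.83% of the promoters of other tested genes and 7.12% of all. These matches are a description of letters in a window and not of bound sites.

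Below stand 3 promoters of G2/M genes, Top2a (chr11:99024140-99024439, minus strand), Cdk1 (chr10:69352863-69353162, minus strand) and Cenpa (chr5:30666636-30666935, plus strand), and 2 of helicase genes, Mcm6 (chr1:128359656-128359955, minus strand) and Mcm5 (chr8:75109259-75109558, plus strand), each 300 bases from 5′ to 3′ on the strand of the gene. Capitals mark CHR, CCAAT and E2F matches on either strand, so that TTCAAA and ATTGG are CHR and CCAAT matches on the other strand, and a run of 12 capitals in Mcm6 and in Mcm5 holds 2 overlapping E2F matches. Top2a carries 2 CHR and 6 CCAAT matches and no E2F match. Cdk1 carries 2 CHR, 3 CCAAT and 1 E2F match, and Cenpa 1 CHR and 2 CCAAT matches. Mcm6 carries 3 E2F and 2 CCAAT matches, Mcm5 carries 2 E2F and 3 CCAAT matches, and neither carries a CHR match.
Top2a: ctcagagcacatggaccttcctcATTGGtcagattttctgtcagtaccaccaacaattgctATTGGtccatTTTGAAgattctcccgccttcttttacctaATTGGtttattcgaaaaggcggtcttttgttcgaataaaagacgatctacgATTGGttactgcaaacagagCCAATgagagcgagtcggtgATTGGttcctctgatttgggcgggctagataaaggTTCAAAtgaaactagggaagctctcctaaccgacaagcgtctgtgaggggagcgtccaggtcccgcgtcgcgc
Cdk1: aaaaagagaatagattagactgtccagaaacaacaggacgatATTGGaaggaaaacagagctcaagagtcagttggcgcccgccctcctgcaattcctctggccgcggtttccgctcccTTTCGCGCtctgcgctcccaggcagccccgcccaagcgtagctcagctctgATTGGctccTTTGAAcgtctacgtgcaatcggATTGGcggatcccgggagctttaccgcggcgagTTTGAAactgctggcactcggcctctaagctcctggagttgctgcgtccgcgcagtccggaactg
Cenpa: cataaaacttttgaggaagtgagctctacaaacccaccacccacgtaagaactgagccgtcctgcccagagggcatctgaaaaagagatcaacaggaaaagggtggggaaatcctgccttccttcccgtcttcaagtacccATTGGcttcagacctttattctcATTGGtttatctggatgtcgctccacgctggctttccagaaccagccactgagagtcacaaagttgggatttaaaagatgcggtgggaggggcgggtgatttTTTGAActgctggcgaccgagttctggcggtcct
Mcm6: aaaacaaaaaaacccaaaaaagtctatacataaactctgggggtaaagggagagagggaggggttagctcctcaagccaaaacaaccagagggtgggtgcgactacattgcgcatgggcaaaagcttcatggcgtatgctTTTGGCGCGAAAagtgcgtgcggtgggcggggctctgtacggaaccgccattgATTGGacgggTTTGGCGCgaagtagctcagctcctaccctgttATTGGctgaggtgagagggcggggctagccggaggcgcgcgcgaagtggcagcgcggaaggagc
Mcm5: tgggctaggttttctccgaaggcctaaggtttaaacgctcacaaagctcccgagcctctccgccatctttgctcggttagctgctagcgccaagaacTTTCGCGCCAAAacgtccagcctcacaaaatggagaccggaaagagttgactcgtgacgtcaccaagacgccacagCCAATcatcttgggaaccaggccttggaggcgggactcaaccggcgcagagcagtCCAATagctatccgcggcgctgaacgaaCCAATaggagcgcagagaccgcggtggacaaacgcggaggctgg

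Origin licensing and the replicative helicase were represented by 11 genes, of which 5 had a log2 fold change above 0 and 6 below, with a median of -0.01. Mcm6, a subunit of the MCM2-7 ring, had the highest level per kilobase of the group, 26.2 CPM per kb. It measured 68.1, 82.2, 75.3 and 89.4 CPM with water and 75.5, 70.7, 73.8 and 88.3 CPM with zinc (log2 fold change -0.03, SE 0.12, edgeR adjusted p = 0.998). Mcm2, another subunit, measured 37.7, 52.0, 40.4 and 49.9 CPM with water and 45.3, 40.5, 41.6 and 48.2 CPM with zinc (log2 fold change -0.04, SE 0.12, adjusted p = 0.998). The groups overlapped almost fully in both, and these were the 2 steadiest of the 44 genes, with a range over the 8 libraries of 0.39 (Mcm6) and 0.46 (Mcm2) on the log2 scale. The other subunits, Mcm3, Mcm4, Mcm5 and Mcm7, had log2 fold changes from 0.02 to 0.22 (SE 0.13 to 0.15).

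Cdc45 and Cdt1 lay at the opposite ends of the whole list. Cdc45, which joins the MCM ring to form the active helicase (ENSMUSG00000000028, chromosome 16, 18599195 to 18631551, minus strand, GRCm39), measured 5.25, 6.44, 5.25 and 6.45 CPM with water and 11.5, 6.76, 8.77 and 10.4 CPM with zinc (log2 fold change 0.67, SE 0.19, edgeR adjusted p = 0.544). The groups did not overlap, and zinc replicate 1 was the highest library, unlike in the G2/M genes. Exons of genes on the opposite strand cover 16.1% of its merged exons. Cdt1, which loads the MCM ring at origins, measured 19.1, 27.0, 21.7 and 27.2 CPM with water and 15.7, 22.4, 22.6 and 23.0 CPM with zinc (log2 fold change -0.18, SE 0.15, adjusted p = 0.998). Zinc replicate 1 was the lowest library and the groups overlapped. Gins1, Gins2 and Cdc6, further helicase and licensing genes, had log2 fold changes of -0.09, -0.04 and -0.01 with SE of 0.25, 0.22 and 0.21.

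At the fork, Pcna, the sliding clamp, measured 32.0, 31.5, 28.3 and 33.6 CPM with water and 32.6, 34.8, 33.4 and 40.5 CPM with zinc (log2 fold change 0.17, SE 0.11, edgeR adjusted p = 0.998), and the groups overlapped. It has 2 pseudogenes by name, and Ccnb1, Ccnb2 and Tyms have 1 each, with which reads could be shared. Hells and Uhrf1, which act on replicated chromatin, stood at -0.03 (SE 0.14) and 0.11 (SE 0.17) in log2 fold change. Of the genes of nucleotide supply, Rrm1, the large subunit of ribonucleotide reductase, measured 66.6, 79.5, 66.1 and 83.7 CPM with water and 83.8, 80.2, 73.0 and 101 CPM with zinc (log2 fold change 0.19, SE 0.12, adjusted p = 0.998). Its small subunit Rrm2 measured 9.76, 13.7, 11.8 and 17.9 CPM with water and 17.99, 18.6, 16.1 and 20.6 CPM with zinc (log2 fold change 0.46, SE 0.17, adjusted p = 0.998). For Rrm2 all zinc libraries but replicate 3 were above the highest water library, whereas the Rrm1 groups overlapped more. Exons on the opposite strand cover 43.3% of the merged exons of Rrm2. Tyms, thymidylate synthase, measured 20.9, 21.4, 17.0 and 26.8 CPM with water and 24.8, 21.3, 18.5 and 29.7 CPM with zinc (log2 fold change 0.13, SE 0.16, adjusted p = 0.998), with the groups overlapping. Tk1, thymidine kinase, had a log2 fold change of 0.03 (SE 0.17).

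The 4 genes of G1/S control all had low levels. E2f1, the E2F factor at the head of the S-phase wave, had the highest level per kilobase of the 4, 2.86 CPM per kb, and the checkpoint kinase gene Chek1 the lowest of all 44 genes, 0.973 CPM per kb. E2f1 measured 7.57, 8.59, 6.22 and 9.24 CPM with water and 9.14, 6.04, 7.47 and 8.18 CPM with zinc (log2 fold change -0.04, SE 0.19, edgeR adjusted p = 0.998). Ccne1, cyclin E1, measured 3.69, 3.14, 1.44 and 3.86 CPM with water and 3.44, 2.37, 4.39 and 5.82 CPM with zinc (log2 fold change 0.41, SE 0.33, adjusted p = 0.998). Groups overlapped for both. Ccne1 had the widest range of the 44 genes, 1.70 on the log2 scale, and the lowest count, 34 in water replicate 3, with an exact Poisson 95% interval of 23.5 to 47.5 counts. Ccne2 and Chek1 stood at 0.45 (SE 0.26) and 0.31 (SE 0.19) in log2 fold change.

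The balance of S-phase and G2/M genes in each library was read as the log2 ratio of the S-phase sum over the G2/M sum. It was -0.02, -0.07, 0.07 and -0.06 in water replicates 1 to 4 (mean -0.02 ± 0.06, SD, n = 4). It was -0.02, -0.41, -0.38 and -0.26 in zinc replicates 1 to 4 (mean -0.27 ± 0.18, SD, n = 4). Zinc replicates 2 to 4 were below every water library and zinc replicate 1 was among them, so the groups overlapped. The difference of the means was -0.25 and went from -0.33 to -0.20 as each library was left out in turn. This ratio does not depend on how libraries are scaled, since both sums come from the same library.

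Enterocyte transcripts moved with this ratio in part. Sis, sucrase-isomaltase of the enterocyte brush border, measured 1.63, 1.93, 1.69 and 2.86 CPM with water and 2.38, 22.8, 13.0 and 7.80 CPM with zinc (log2 fold change 2.49, SE 0.65, edgeR adjusted p = 0.852), and was above all water libraries in zinc replicates 2 to 4, the same libraries with the low ratio. The summed level of the 9 enterocyte markers did not follow it, at 397 to 555 CPM in water and 418 to 538 CPM in zinc, with Alpi, Fabp1 and Lct near 0. The 7 markers of crypt stem cells summed to 4471 to 5873 CPM in water and 3156 to 4560 CPM in zinc, with overlapping groups. Of the 7 stem markers 1 had a log2 fold change above 0, against 51.9% of tested genes, and 2 were lower at an unadjusted p below 0.05, against 2.81% of tested genes. They were Olfm4, with 4082, 4703, 4667 and 5484 CPM with water and 4150.3, 3489.6, 3177 and 2799 CPM with zinc (log2 fold change -0.48, SE 0.19, adjusted p = 0.998), and Tnfrsf19 (log2 fold change -0.69, SE 0.19, adjusted p = 0.523). Lgr5, the defining stem cell marker, had a log2 fold change of -0.02 (SE 0.16).

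Transcripts that mark other cell types were read at varied levels, and the paper reports a very high purity of its sorted Paneth cells. Goblet markers summed to 8129 to 13694 CPM in water and 10207 to 13309 CPM in zinc, most of it from Spink4 and Muc2. Spink4 fell from replicate 1 to 4, from 9656 to 4750 CPM with water and from 9876 to 5824 CPM with zinc. The Paneth marker Defa24 fell in the same order, and which cells the Spink4 counts came from was not tested. Clca1 and Zg16 stood apart in replicate 4 of both groups, where the sum of the 44 genes was highest. Clca1 measured 11.4, 16.6, 19.7 and 238 CPM with water and 5.52, 16.1, 24.3 and 124 CPM with zinc. Zg16 measured 12.6, 25.3, 16.6 and 82.1 CPM with water and 8.25, 20.4, 17.7 and 172 CPM with zinc, and Fcgbp was also highest in replicate 4 of each group. Clca1 and Zg16 were named after their values were seen. Muc2 and Tff3 shared this peak in zinc only, at 3085 and 851 CPM in zinc replicate 4. With water, Muc2 was lowest in replicate 4 (1702 CPM), and Tff3 was highest in replicate 1 (1216 CPM, against 825 CPM in replicate 4). Enteroendocrine markers summed to 42.2 to 105 CPM and 44.7 to 68.0 CPM, and tuft markers to 14.1 to 120.2 CPM and 17.1 to 81.8 CPM, highest in water replicate 4. Immune markers summed to at most 2.02 CPM with Cd3e and Cd3g at 0 in all libraries, and stromal markers to at most 0.625 CPM with Col1a1, Pdgfra and Acta2 at 0. A count of 0 allows a level of up to 0.115 to 0.188 CPM in these libraries, taking 3 counts as the limit. The part of any of these cell types in the levels of the 44 genes was not tested.

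Levels varied widely between the libraries of a group. The range of a gene over the 8 libraries had a median of 0.88 on the log2 scale for the 44 genes and 0.69 for all tested genes. Zinc replicate 4 was the highest library for 30 of the 44 genes, water replicate 4 for 8 and zinc replicate 2 for 3. Water replicate 3 was the lowest for 19, water replicate 1 for 16 and zinc replicate 1 for 4. With library totals as the only scaling, zinc replicate 4 was highest for 37 and water replicate 1 lowest for 36, and the number of genes with an unadjusted p below 0.05 fell from 11 to 2, while 36 log2 fold changes stayed above 0. That number was 4 without zinc replicate 4, 6 without water replicate 3, 7 without water replicate 1, 18 without zinc replicate 1 and 21 without water replicate 4. The median log2 fold change of the 44 genes stayed above 0 each time, from 0.15 without zinc replicate 4 or water replicate 3 to 0.37 without water replicate 4. The S-phase median was at or just below 0 without water replicate 1 (-2.4e-04) and without zinc replicate 4 (-0.01).

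Further genes of the same processes were listed by role to set beside the 44. Like the 44, these lists were chosen with earlier results of these data known, and they come from the same libraries. They are therefore no independent check. Of 40 other mitosis genes, all tested, 37 had a log2 fold change above 0 (median 0.30), against 51.9% of all tested genes, 12 were higher with zinc at an unadjusted p below 0.05, against 1.84%, and 0 passed the adjusted threshold. The smallest p was that of Ect2, which directs cytokinesis. It measured 20.5, 28.5, 19.4 and 25.4 CPM with water and 30.6, 34.3, 30.3 and 35.3 CPM with zinc (log2 fold change 0.47, SE 0.13, edgeR adjusted p = 0.530), and its groups did not overlap. Ncapg, a condensin subunit, and Sgo1, which protects sister cohesion at centromeres, were the other 2 genes of this list whose groups did not overlap, at 0.45 (SE 0.15) and 0.60 (SE 0.22) in log2 fold change. These 2 were named after their values were seen.

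Of 38 other replication genes, all tested, 29 were above 0 (median 0.09), against 51.9% of all tested genes. In this list 1 gene was higher at an unadjusted p below 0.05, a share near that of all tested genes (1.84%), and 0 passed the adjusted threshold. That 1 gene was Pola2, a subunit of the polymerase that primes each strand, with 9.69, 13.6, 13.2 and 17.2 CPM with water and 16.5, 16.5, 16.3 and 20.2 CPM with zinc (log2 fold change 0.37, SE 0.16, edgeR adjusted p = 0.998). The groups overlapped through water replicate 4. Of 32 genes of G1 cyclins, their kinases and cell cycle brakes, 31 were tested, 20 were above 0 (median 0.04), against 51.9% of all tested genes, 2 were higher at an unadjusted p below 0.05, against 1.84%, and 0 passed. Cdkn2a was at 0 in all 8 libraries. The smallest p was that of Mybl2, the MYB factor of the G2/M wave, with 2.50, 4.43, 2.83 and 4.47 CPM with water and 4.45, 5.75, 4.86 and 6.17 CPM with zinc (log2 fold change 0.57, SE 0.24, adjusted p = 0.998), and its groups overlapped only through zinc replicate 1. The other was Cdkn2c, an inhibitor of Cdk4 and Cdk6 named after its values were seen, with log2 fold change 0.39, SE 0.17. Cdkn1a, the inhibitor p21, had the lowest log2 fold change of this list and was also named after its values were seen. It measured 84.2, 61.8, 71.9 and 37.8 CPM with water and 60.2, 36.3, 51.7 and 29.6 CPM with zinc (log2 fold change -0.52, SE 0.29, adjusted p = 0.998). Its lowest library in each group was replicate 4, where the sum of the 44 genes was highest.

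**Figure D4:**
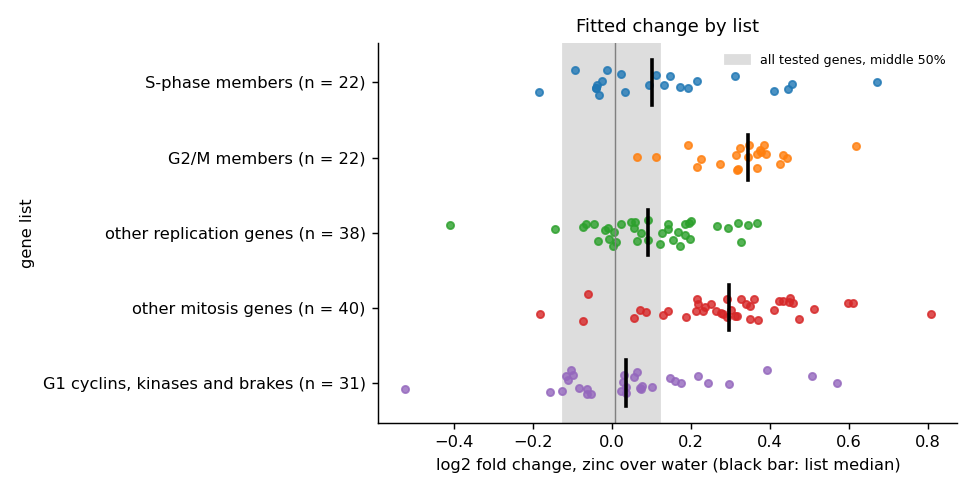
Fitted log2 fold change, zinc over water, of each tested gene in 5 lists, with the black bar at the median of each list and the grey band over the interquartile range of all tested genes, from -0.12 to 0.12. Both mitosis lists have medians to the right of the band (0.35 and 0.30), and both replication lists (0.10 and 0.09) and the G1 list (0.04) have medians inside it.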

How the data were processed

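The authors deposited 1 table of read counts per Ensembl gene ID, whole numbers with no normalization, for all 8 libraries. The submitters' processing notes name FastQC 0.12.0, STAR 2.7.0a, DESeq2 and the build mm39. Not given in the sources used here are the counting program, its strand setting, the annotation and the treatment of multi-mapping reads. Gene IDs were looked up in GENCODE M39 (GRCm39) for symbols and coordinates (54749 of 55414 IDs, at least 99.99% of counts in each library).

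The whole table was fitted in edgeR 4.0.16 (R 4.3.3) with treatment as the only term, using robust quasi-likelihood fits, TMM factors, its default filter with a minimum count of 10, and Benjamini-Hochberg adjustment over all 11988 tested genes at a threshold of 0.05. The procedure was tested on simulated counts. The standard error (SE) of a log2 fold change was its size over the square root of F. Levels of different genes were compared only per kilobase of the Ensembl canonical transcript. Alternatives used RLE size factors, library totals only, no filter, the replicate number as a block, a minimum mean count of 50, no Defa genes, DESeq2 1.42.0, limma-voom (limma 3.58.1), 8 fits without 1 library each and, for sums, counts divided by merged exon length and a geometric mean. The block with library totals and sums over canonical length were chosen after the data had been seen. No 2 libraries of a group were as alike as sampling noise alone would make them (chi-square over genes), and each counted as 1 replicate. Counts carried no molecular identifiers, so intervals and limits cover counting error only.

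The 44 genes, their role groups, the further lists and the marker lists were chosen with earlier results of these data known. Among the 44, values per library were given for 16 anchor genes whatever their result, and for genes with an unadjusted p below 0.05. They were also given for the highest and lowest log2 fold change and the highest gene per kilobase of each role group. From each further list they were given for the gene with the smallest p. Outside these rules, Cdkn1a and the markers Sis, Olfm4, Clca1 and Zg16 were given by library after their values were seen.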

Additional observations from a re-analysis of the deposited data

Results flagged for a closer look

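Each of the 24 genes described library by library, and each summed level, was checked in both groups for a single library far from the other 3 (Dixon's test at the 95% level). Of 56 such groups of 4 libraries, 2 held such a library, and chance gives about 1 in 20. Birc5 was at 22.6 CPM in water replicate 4, with the other water libraries between 12.9 and 14.1 CPM. Cdt1 was at 15.7 CPM in zinc replicate 1, with the other zinc libraries between 22.4 and 23.0 CPM.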

How the results depend on the processing

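The sum of the 44 genes, the ratio of S-phase to G2/M sums and the median log2 fold change kept their direction in every alternative. Genes of the 44 past the adjusted threshold numbered 0, and 1 without the filter (Cenpa), 1 with the replicate block (Top2a), 1 with the replicate block and library totals (Top2a), and 0 to 0 as each library was left out. Calls over all genes numbered 10, and 66 without the filter, 36 in DESeq2, 32 with the replicate block, 32 with the block and library totals, and 1 (without water replicate 2) to 15 (without zinc replicate 1) as each library was left out, with 3 without zinc replicate 2 and 4 without water replicate 3. Genes of the 44 with an unadjusted p below 0.05 numbered 11, and 2 with library totals, 18 without the filter, 20 with the replicate block, 18 with the block and library totals, and 4 to 21 as each library was left out. Among single genes, Mcm2 ran from -0.114 to 0.0314, Mcm6 from -0.109 to 0.0303, E2f1 from -0.146 to 0.0608 and Tyms from -0.0072 to 0.254 in log2 fold change over those 8 fits, so that their direction is not settled, and the cause was not tested. The replicate numbers were not taken as pairs, since deviations of same-numbered libraries correlated at 0.28, 0.02, 0.13 and 0.31 for numbers 1 to 4, and both libraries numbered 2 correlated better with another number. Numbers 1, 3 and 4 did correlate above all 12 mismatched pairs (at most 0.0693). The Defa share and TMM factor of each water library were also nearest those of the zinc library with its number. For number 2 they were 33.9% and 1.02 with water and 34.0% and 0.998 with zinc. These are hints of pairing from the data and not from the design, and the main fit and the statements of overlap leave them unused. In each of the 4 numbers the zinc library had the higher sum of the 44 genes and of the G2/M genes. Depth limits Ccne1 most, with 34 counts in its lowest library.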
